A study of Homo sapiens with 80 samples.

Results

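RNA was measured in 8 wells of WTC11, a human induced pluripotent stem cell line, 4 collected on day 2 and 4 on day 4 of a cardiomyocyte differentiation that ended with low purity. They were chosen by their labels, passage 69, low purity, day 2 and day 4, from 80 libraries in all. Flow cytometry on day 16 counted the cells that stained for cardiac troponin T, and each differentiation was named high or low purity from that count. The study asks which molecular features of the first days go with the purity reached at the end. The comparison of day 4 with day 2 asks which genes changed across the step in which WNT signalling is blocked, and the contractile genes were followed in depth.

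Every well received the GiWi treatment. CHIR99021, which activates WNT signalling by inhibiting the kinase GSK3, was added on day 0. IWP2, which blocks WNT secretion, was added with fresh medium on day 2, and the medium was changed to one without IWP2 on day 4. The 2 days therefore bracket the IWP2 step; whether wells were collected before or after the medium change of the day is not given in the sources used here. The high purity group used for comparison had 4 wells on each of these days, of WTC11 at passage 52, given the same agents on the same days. All low purity wells come from a single differentiation, and so do all high purity wells, so that purity, passage and differentiation cannot be told apart. The p-values measure only the spread between wells of a differentiation. A further 24 libraries of a separate RNA-only collection, 1 library per differentiation and time, are given as values without a test. They are WTC11 at passage 69 (low purity) and 81 (high), the human embryonic stem cell line H9 at passage 55 (low) and 58 (high), and the induced pluripotent line IMR90-4 at passage 75 (low) and 55 (high). H9 and IMR90-4 received IWP2 in part conditioned medium on day 3, had it removed on day 5, and were sampled on those days in place of days 2 and 4.

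The contractile unit of heart muscle is the sarcomere, in which thin filaments of actin, tropomyosin and troponin slide along thick filaments of myosin, and Z-discs anchor the thin filaments. Cells of the cardiac lineage pass through primitive streak and mesoderm states before they transcribe sarcomere genes, and the first sarcomere genes to appear include forms shared by embryonic heart and smooth muscle. The transcription factor SRF, which binds the CArG box, and its coactivator myocardin switch on many contractile genes, together with GATA, TBX, HAND, NKX2-5 and MEF2 factors.

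The 8 wells fell into the days that their labels give. Correlations of log2(TPM + 1) between wells, over the genes tested, were 0.960 to 0.969 within a day and 0.825 to 0.831 between days. Reads per well, recovered from the TPM values, were 6841508 to 7732058 on day 2 and 9334303 to 11386125 on day 4, so that every day 4 well was deeper (two-sided exact permutation p = 0.0286, the smallest that 4 against 4 allows). A ribosomal RNA listed as RNR2 took 20.3% ± 0.748 of the TPM on day 2 and 16.2% ± 0.196 on day 4 (SD, n = 4). The 4 day 2 wells were each nearest, among the RNA-only WTC11 libraries, to the high purity library of day 2, and the 4 day 4 wells to the high purity library of day 4, so that the day matched the label. Over all multi-omic wells, of either class and every day, 55 of 56 were nearest to a high purity library, so that this comparison does not tell the classes apart. The deposited count table holds the reads of all 8 wells under other names, of days 13 and 16 for the day 2 wells and of days 2 and 16 for the day 4 wells. The names of the TPM table were used throughout, and whether its purity labels are right could not be settled from these files, which bears on every value set between low and high purity wells.

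Levels were compared as TPM, a length-normalised share of each library. A change is the difference of log2(scaled TPM + 1) between days, which understates the change of genes near 0, and a gene was called at a limma adjusted p under 0.05 with a change of at least 1 in size. Of 20138 genes with at least 1 TPM in 3 or more of the 8 wells, 4272 were called (21.2%). On day 4, 1969 genes were higher (9.78%) and 2303 lower (11.4%). The median change of all genes was -0.02, and 0.08 without scaling. Few reads lie behind some calls: 122 of them rest on at most 10 reads in each day's 4 wells together.

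Contractile genes rose together between day 2 and day 4. Of 78 genes in 4 lists (thin filament, thick filament, Z-disc and sarcomere assembly, smooth muscle), 61 passed the filter, 34 rose, 0 fell and 27 were not called. Their median change was 1.32, beside -0.02 for all genes tested. Each day 4 well was above each day 2 well in 40 of the 61, among them all 34 that rose. Of all genes tested, 54.6% had wells of the days that did not overlap, 31.2% with day 4 higher. The filter let in 13 of the 61 only through their day 4 wells, as it did 1812 of all genes, so these had to be higher on day 4. The 17 genes left untested, among them MYH7, MYL2 and MYBPC3 of the mature heart and MYH11 of mature smooth muscle, did not exceed 1.45 TPM in any well. Summed over the 4 lists, the level went from between 1307 and 1393 TPM on day 2 to between 8412 and 9537 TPM on day 4. In bulk RNA, more cells of a type and more RNA per cell cannot be told apart.

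**Figure D1:**
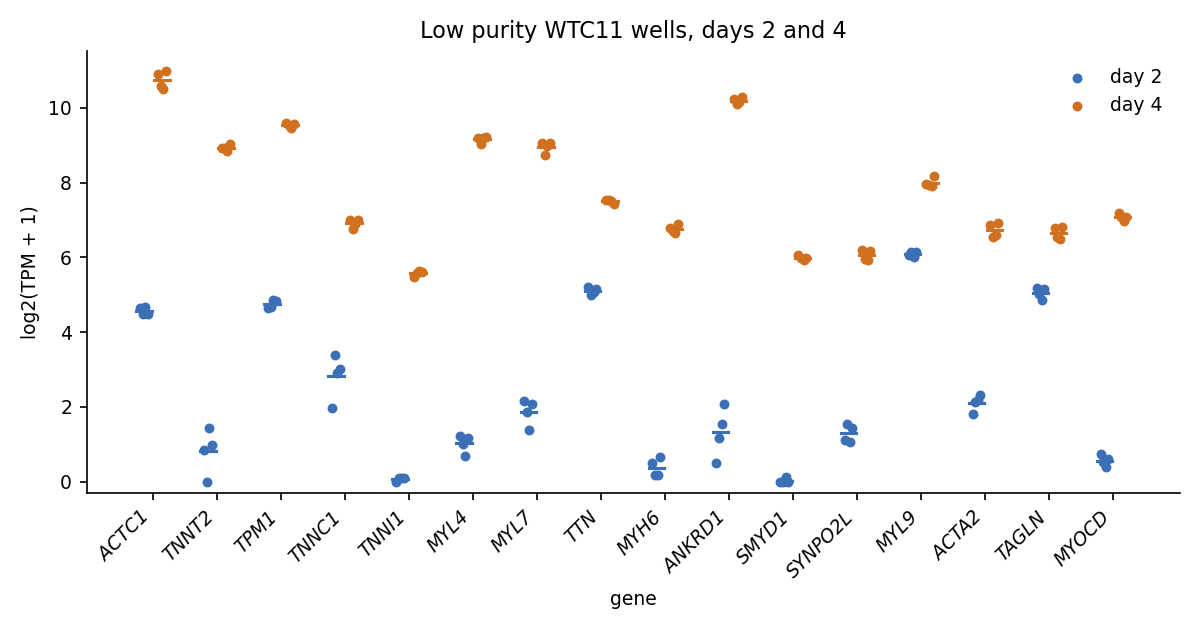
TPM of 15 contractile genes and of MYOCD in each low purity well, on a log2(TPM + 1) axis, with day 2 in blue, day 4 in orange and short bars at the mean of the 4 wells. The day 4 wells lie above all day 2 wells for every gene shown; TNNT2 goes from 0 to 1.71 TPM up to 457 to 524 TPM.

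ACTC1 encodes cardiac alpha actin, the actin of the heart's thin filament. It measured 24.2, 21.2, 24.4 and 21.3 TPM in the day 2 wells and 1916, 1537, 1453 and 2022 TPM in the day 4 wells. The days were far apart, while wells 2 and 3 of day 4 were lower than wells 1 and 4. ACTC1 rose by 6.06 ± 0.15 (SE; limma adjusted p = 2.9e-33), the most abundant contractile gene on day 4. TNNT2 encodes cardiac troponin T, the protein stained for the purity measurement. It measured 0.793, 0, 1.71 and 0.972 TPM on day 2 and 489, 486, 457 and 524 TPM on day 4. It was near or at 0 in every day 2 well and high in every day 4 well, and it rose by 8.02 ± 0.27 (SE; limma adjusted p = 4.59e-28).

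TPM1, alpha tropomyosin, was already present on day 2. Its wells measured 24.1, 24.4, 27.9 and 27.4 TPM on day 2 and 774, 743, 711 and 766 TPM on day 4. The 4 wells of a day were close to each other, and the rise was 4.68 ± 0.076 (SE; limma adjusted p = 3.78e-40). NEBL, the nebulette that links thin filaments to the Z-disc, went from 4.96 ± 0.352 to 212 ± 7.59 TPM (SD, n = 4). TNNC1, the calcium-binding troponin C of heart, went from 2.94, 9.43, 6.53 and 7.02 TPM to 127, 108, 117 and 128 TPM. Its first day 2 well was well below the other 3, and none came near the day 4 range. TNNI1, the troponin I of the embryonic heart, had 3 reads over the 4 day 2 wells and 3669 over the day 4 wells, a ratio of 967 after scaling for depth (95% counting interval 331 to 4691). LMOD2, which elongates thin filaments, rose by 1.32 ± 0.26 (SE) to 3.24 ± 0.668 TPM.

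In all, 7 of 17 tested thin filament genes rose and 0 fell, with a median change of 0.64. The 10 that were not called include abundant forms that cells outside muscle also use. TPM4 measured 287, 274, 263 and 297 TPM on day 2 and 470.4, 472, 464 and 487 TPM on day 4, a change of 0.64 ± 0.066 (SE) that is under the size asked for, although the days did not overlap. TPM3 changed by -0.46 ± 0.061 (SE). TNNT1, the slow skeletal troponin T, measured 98.1 to 120.1 TPM on day 2 and 91.2 to 107 TPM on day 4, with overlapping wells. TNNI3, the troponin I of the adult heart, measured 27.2, 24.3, 32.8 and 22.3 TPM on day 2 and 29.6, 31.2, 36.9 and 46.0 TPM on day 4. Its wells overlapped, and neither TNNT1 nor TNNI3 was called (changes of -0.25 ± 0.15 and 0.30 ± 0.24, SE).

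Myosin genes of the atrial type led the thick filament list. MYL4, the atrial essential light chain, measured 1.34, 1.01, 0.621 and 1.23 TPM on day 2 and 586, 523, 581 and 599 TPM on day 4. All day 2 wells were near 0 and well 2 was the lowest of day 4, and the rise was 8.03 ± 0.19 (SE; limma adjusted p = 5.16e-34). MYL7, the atrial regulatory light chain, went from 3.50, 2.63, 1.62 and 3.22 TPM to 535, 430.1, 505 and 534 TPM, a rise of 6.98 ± 0.22 (SE). MYH6, the alpha heavy chain, went from 0.413, 0.138, 0.127 and 0.569 TPM to 110.1, 103, 99.4 and 118 TPM, a rise of 6.29 ± 0.25 (SE). In MYL7 as in MYL4, well 2 was the lowest on day 4; in MYH6 the lowest was well 3.

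MYLK3, the kinase that phosphorylates cardiac myosin light chain, rose by 5.16 ± 0.12 (SE), from 0.583 ± 0.0238 to 59.8 ± 2.73 TPM (SD, n = 4). TTN encodes titin, the spring that runs from the Z-disc to the middle of the sarcomere. It was at 35.9, 30.9, 32.6 and 34.6 TPM on day 2 and at 185, 185, 181 and 172 TPM on day 4. Titin was thus well above 0 before the step and rose by 2.28 ± 0.17 (SE; limma adjusted p = 1.35e-15). MYL3, the ventricular essential light chain, had 1 read on day 2 and 72 on day 4, a ratio of 56.9 (95% counting interval 9.90 to 2279), and reached 6.01 ± 1.73 TPM. MYH7, the beta heavy chain of the ventricle, did not pass the filter, with 4 reads on day 2 and 20 on day 4. Of 11 tested thick filament genes 6 rose, 0 fell and the median change was 2.28. Those not called included MYH3 and MYOM1, the second of which was at 1.58 ± 0.113 TPM on day 2 and 0.415 ± 0.192 TPM on day 4.

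ANKRD1 of the Z-disc and assembly list had the largest fitted rise of all protein-coding genes tested. It encodes a nuclear and Z-disc protein induced by stretch. ANKRD1 measured 0.414, 1.25, 1.92 and 3.24 TPM on day 2 and 1203, 1111, 1134 and 1250.5 TPM on day 4. The day 2 wells differed severalfold among themselves and the day 4 wells hardly at all, and the rise was 8.77 ± 0.21 (SE; limma adjusted p = 6.04e-34). Genes for the folding and assembly of myosin had almost no reads on day 2. UNC45B, the muscle myosin chaperone, had 0 reads in all 4 day 2 wells and measured 31.6, 29.0, 27.0 and 30.4 TPM on day 4, at least 572-fold higher against a floor of 3 reads over the day 2 wells. SMYD1, a methyltransferase that acts with the chaperones of myosin, had 1 read on day 2 and 3593 on day 4.

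SYNPO2L and XIRP1, which bind actin at the Z-disc and the intercalated disc, rose by 4.66 ± 0.15 and 4.41 ± 0.21 (SE). SYNPO2L went from 1.18, 1.92, 1.09 and 1.69 TPM to 72.2, 60.7, 59.9 and 71.0 TPM, with the days far apart. Other Z-disc genes spanned a wide range of TPM on day 4. ACTN2, the sarcomeric alpha actinin, rose from 1.12, 1.44, 1.41 and 1.40 TPM to 12.2, 9.99, 12.4 and 11.1 TPM, a change of 2.30 ± 0.22 (SE). LDB3, a PDZ protein bound to ACTN2, rose from 0.352 ± 0.134 to 9.98 ± 0.698 TPM, NEXN rose from 7.83 ± 0.492 to 48.3 ± 2.38 TPM, and FLNC, filamin C, rose from 65.3 ± 4.60 to 321 ± 6.76 TPM (SD, n = 4). TCAP, DES and CRYAB, found at the Z-disc of mature heart muscle, were not called and stayed at or under 2.16 TPM in every well. Of 21 tested genes of the list 13 rose and 0 fell. Their median change was 1.43, or 1.87 with genes of few day 2 reads set by their counts.

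Smooth muscle forms rose in the same wells. ACTA2, smooth muscle alpha actin, measured 2.49, 3.40, 3.56 and 3.95 TPM on day 2 and 116, 92.4, 95.7 and 119.6 TPM on day 4, with wells 1 and 4 of day 4 the higher, as for ACTC1. It rose by 4.51 ± 0.18 (SE; limma adjusted p = 1.74e-25). LMOD1, the leiomodin of smooth muscle, rose by 4.35 ± 0.16 (SE) and CNN1, calponin, by 3.67 ± 0.16 (SE). CALD1, MYL9 and TAGLN were abundant on day 2, at 65.0, 67.0 and 32.4 TPM, and reached 265, 255 and 100.3 TPM. Of 12 tested genes 8 rose and 0 fell, with a median change of 1.64, while MYH11, the myosin that defines mature smooth muscle, had 0 TPM in all 8 wells. How the counting treated reads shared by near-identical genes is not given, so the split between ACTC1, ACTA1 and ACTA2, and between MYH6 and MYH7, is uncertain. ACTA1, the skeletal form, measured 17.0 to 21.1 TPM on day 2 and 19.7 to 26.6 TPM on day 4.

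The proximal promoters of 5 of these genes are shown because the days were so far apart there, and because factors that bind such sequences were measured in the same wells. Each is the 250 bases before the annotated start, from RefSeq on GRCh38.p14, written 5′ to 3′ on the gene's own strand, which is the minus strand for all 5. ANKRD1 lies at chr10:90912096-90921087 and its window at chr10:90921088-90921337. TNNT2 has its window at chr1:201377681-201377930, MYL7 at chr7:44141333-44141582, MYH6 at chr14:23408274-23408523 and ACTC1 at chr15:34795550-34795799. Capitals mark matches on either strand. The motifs searched were the CArG box, bound by SRF, and the MEF2 site. The letters CATTCC, bound by TEAD proteins, were searched as well. For the factors GATA4 and GATA6 the letters were AGATAA. The common core promoter element was searched as TATAAA.
ANKRD1: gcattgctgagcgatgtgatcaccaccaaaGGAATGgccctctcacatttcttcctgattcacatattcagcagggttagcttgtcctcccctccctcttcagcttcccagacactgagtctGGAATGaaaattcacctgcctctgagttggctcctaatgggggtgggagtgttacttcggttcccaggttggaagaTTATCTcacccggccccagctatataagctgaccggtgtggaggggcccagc
TNNT2: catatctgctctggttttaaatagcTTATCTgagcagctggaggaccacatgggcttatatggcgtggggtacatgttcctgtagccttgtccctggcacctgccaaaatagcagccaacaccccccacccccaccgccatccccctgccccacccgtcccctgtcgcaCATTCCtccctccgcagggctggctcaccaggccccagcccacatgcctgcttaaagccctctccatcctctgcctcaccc
MYL7: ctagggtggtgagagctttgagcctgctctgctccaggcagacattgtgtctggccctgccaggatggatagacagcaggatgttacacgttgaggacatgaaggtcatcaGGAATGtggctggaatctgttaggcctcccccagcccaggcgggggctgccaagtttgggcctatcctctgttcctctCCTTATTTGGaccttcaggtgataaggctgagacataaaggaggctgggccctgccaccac
MYH6: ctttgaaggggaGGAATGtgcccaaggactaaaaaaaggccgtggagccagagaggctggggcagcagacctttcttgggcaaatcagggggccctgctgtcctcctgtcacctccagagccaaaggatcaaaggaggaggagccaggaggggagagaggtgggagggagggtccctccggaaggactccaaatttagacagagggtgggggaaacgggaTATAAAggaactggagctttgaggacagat
ACTC1: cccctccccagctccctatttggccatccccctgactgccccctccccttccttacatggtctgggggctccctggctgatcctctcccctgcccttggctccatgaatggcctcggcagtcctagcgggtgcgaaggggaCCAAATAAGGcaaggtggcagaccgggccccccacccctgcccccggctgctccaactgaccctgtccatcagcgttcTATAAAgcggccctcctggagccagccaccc

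ACTC1 and MYL7 each hold a CArG box, CCAAATAAGG in ACTC1 and CCTTATTTGG in MYL7. ACTC1 and MYH6 hold TATAAA close to the start, while ANKRD1 holds GGAATG, the reverse complement of CATTCC, at 2 places. The RefSeq table held 28 of the 34 contractile genes that rose. A CArG box was found in 3 of the 28 (10.7%), beside 1.14% of all 27305 promoters of the same length. A MEF2 site was found in 6 (21.4%), beside 2.90% of all, and CATTCC in 9 (32.1%), beside 11.9%. AGATAA stood in 4 (14.3%), beside 9.37%, and TATAAA in 4, beside 11.1%. The search covered both strands and 250 bases only, and a match describes the letters, not a bound site.

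Myocardin moved with the contractile genes and SRF moved far less. MYOCD measured 0.665, 0.429, 0.308 and 0.524 TPM on day 2 and 145, 135, 125 and 134 TPM on day 4, with no overlap, and rose by 6.42 ± 0.17 (SE; limma adjusted p = 1.36e-32). SRF measured 46.4, 47.9, 48.2 and 46.8 TPM on day 2 and 83.4, 82.1, 81.3 and 92.4 TPM on day 4. Its wells did not overlap either, but its change of 0.71 ± 0.065 (SE) was under the size asked for. MRTFA, another coactivator of SRF, changed by 0.23 ± 0.084 (SE). Of the 4 genes of this list 1 rose.

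Cardiac transcription factors rose broadly, 14 of 18 tested with 1 lower, beside 9.78% of all genes higher and 11.4% lower. Their median change was 3.23, or 3.61 with genes of few day 2 reads set by their counts. The filter let in 10 of the 18 only through day 4. TBX20, a T-box factor of the early heart, measured 1.02, 0.513, 0.842 and 1.04 TPM on day 2 and 178, 176, 156 and 160.0 TPM on day 4, and rose by 6.41 ± 0.15 (SE). HAND2, of the second heart field and outflow tract, had 0 reads in all day 2 wells and measured 65.3, 74.3, 76.4 and 66.3 TPM on day 4, at least 566-fold higher on the same floor. HAND1, its relative in the early left ventricle and extraembryonic mesoderm, was present on day 2 and rose by 4.43 ± 0.11 (SE) to 367 ± 31.1 TPM (SD, n = 4).

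ISL1, which marks second heart field progenitors, rose by 4.79 ± 0.13 (SE) to 31.6 ± 1.21 TPM. MEF2C rose by 3.85 ± 0.21 (SE) to 18.0 ± 1.52 TPM. TBX5 had 3 reads on day 2 and 1489 on day 4, and on day 4 its wells 2 and 3, at 24.7 and 21.7 TPM, were above wells 1 and 4, at 15.6 and 14.1 TPM. NKX2-5, the homeobox factor of heart progenitors, was low still, with 2 reads on day 2 and 8.76 ± 0.920 TPM on day 4. GATA4 was at 33.6 ± 4.23 TPM before the step and rose by 1.10 ± 0.062 (SE), and GATA6, at 93.3 ± 5.53 TPM on day 2, changed by 0.51 ± 0.059 (SE) and was not called.

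The machinery of calcium cycling and excitation split. Among 15 tested calcium handling genes 6 rose and 2 fell, with a median change of 0.20, while 9.78% of all genes rose and 11.4% fell. Of the 15, 4 passed the filter only through day 4 and so had to be higher there, and 1 passed only through day 2. SLC8A1, the sodium-calcium exchanger, measured 0.289, 0.484, 0.670 and 0.399 TPM on day 2 and 51.3, 48.4, 44.4 and 53.4 TPM on day 4, and rose by 5.01 ± 0.19 (SE). JPH2, which ties the sarcoplasmic reticulum to the cell membrane, rose by 4.35 ± 0.11 (SE) and PLN, phospholamban, by 3.60 ± 0.23 (SE). TRDN, triadin of the calcium release complex, went the other way, from 44.4, 46.4, 45.5 and 46.4 TPM to 4.88, 6.40, 5.32 and 4.63 TPM, and fell by 3.00 ± 0.25 (SE). ATP2A2, the calcium pump found in most cells, was not called at 0.30 ± 0.081 (SE).

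Of 11 tested channel and gap junction genes 4 rose and 5 fell, with a median of 0.06. Of the 11, 3 passed the filter only through day 2 and so had to be lower on day 4, and 2 passed only through day 4. HCN4, the pacemaker channel, rose from 3.34, 2.94, 2.88 and 3.34 TPM to 21.3, 18.2, 18.9 and 21.1 TPM, and KCNJ3, a subunit of the acetylcholine-gated potassium channel, rose by 3.40 ± 0.17 (SE). Its partner subunit KCNJ5 fell by 2.87 ± 0.18 (SE). GJA1, connexin 43, was the most abundant of the list and fell from between 2210.4 and 2471 TPM on day 2 to between 1135 and 1274 TPM on day 4. NPPB, a natriuretic peptide gene of stretched heart muscle, had 1 read on day 2 and 1182 on day 4, with 139.6, 105, 120.2 and 151 TPM in the day 4 wells. NPPA, its neighbour, reached only 5.06 ± 1.09 TPM, a change of 1.84 ± 0.38 (SE; limma adjusted p = 5.77e-05).

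The state that the wells left was that of the primitive streak and of strong WNT signalling. Of 10 tested primitive streak genes 8 fell and 0 rose (median -5.31), and of 11 WNT feedback targets 7 fell and 0 rose (median -1.99). Of all genes tested, 9.78% rose and 11.4% fell. SP5 is in both lists. The filter let in 2 of the 10 and 1 of the 11 only through day 2, so these had to be lower on day 4. DKK4, a secreted WNT inhibitor that WNT itself induces, measured 1055, 891, 914 and 1002 TPM on day 2 and 0.727, 1.41, 0.797 and 0.755 TPM on day 4. It fell by 9.06 ± 0.18 (SE; limma adjusted p = 2.99e-37). DKK1 fell from 901 ± 41.8 to 2.41 ± 0.505 TPM (SD, n = 4). TBXT, brachyury, measured 598, 575, 585 and 594 TPM on day 2 and 3.30, 4.26, 4.01 and 1.20 TPM on day 4, and fell by 7.31 ± 0.16 (SE). MIXL1, a homeobox factor of the streak, fell by 7.10 ± 0.17 (SE).

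Marker lists of other cell types were read in the same wells, where 9.78% of all genes rose and 11.4% fell. Paraxial mesoderm fell, 7 of 10 tested with 2 higher (median -3.01), led by MSGN1, which went from 198 ± 9.44 to 0.286 ± 0.337 TPM. Of these 10 genes, 4 passed the filter only through day 2 and so had to be lower on day 4, and 3 passed only through day 4. MYF5 and MYF6, regulators of skeletal muscle, fell by 2.25 ± 0.20 and 2.42 ± 0.19 (SE), and MYOD1, MYOG, PAX3 and PAX7 stayed under the filter with MYOD1 at 0 in all 8 wells. The summed level of the 6 skeletal regulators went from 35.0 to 42.0 TPM on day 2 to 6.41 to 7.64 TPM on day 4. Pluripotency genes fell in 5 of 9 (median -1.11), with NANOG at 8.96 ± 2.39 and then 0.557 ± 0.271 TPM. Only their day 2 wells let in 2 of the 9. Endothelial genes were low, 2 higher and 1 lower of 5 tested, with 2 of the 5 let in only through day 4 and 1 only through day 2. PECAM1 and CDH5 were not above 0.670 TPM in any well, and the list summed to 14.2 to 18.8 TPM on day 4.

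Epicardial and stromal genes rose with the contractile genes, 6 of 8 tested with 1 lower and a median of 1.78, but 5 of the 8 passed the filter only through their day 4 wells and so had to be higher. The list summed to 203 to 219 TPM on day 2 and 972 to 1004 TPM on day 4. Their part in the rise of the smooth muscle forms was not tested. Amnion and surface epithelium genes rose in 7 of 7 tested (median 2.98), 4 of which had to be higher because they passed only through day 4. ISL1 is among the 7 and was also counted among the cardiac transcription factors. The list went from a sum of 457 to 509 TPM to one of 4206 to 4640 TPM, of which KRT18 made up 2127 ± 114 TPM. TFAP2B and VTCN1 of that list were not above 0.430 TPM in any well. Endoderm genes rose in 5 and fell in 3 of 8 (median 1.48), with 4 of the 8 let in only through day 4. Of 9 proliferation genes 0 were called (median 0.28). In 8 of the 9 each day 4 well was above each day 2 well, beside 31.2% of all genes. The proliferation list summed to 1291 to 1371 TPM on day 2 and 1808 to 1835 TPM on day 4.

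**Figure D2:**
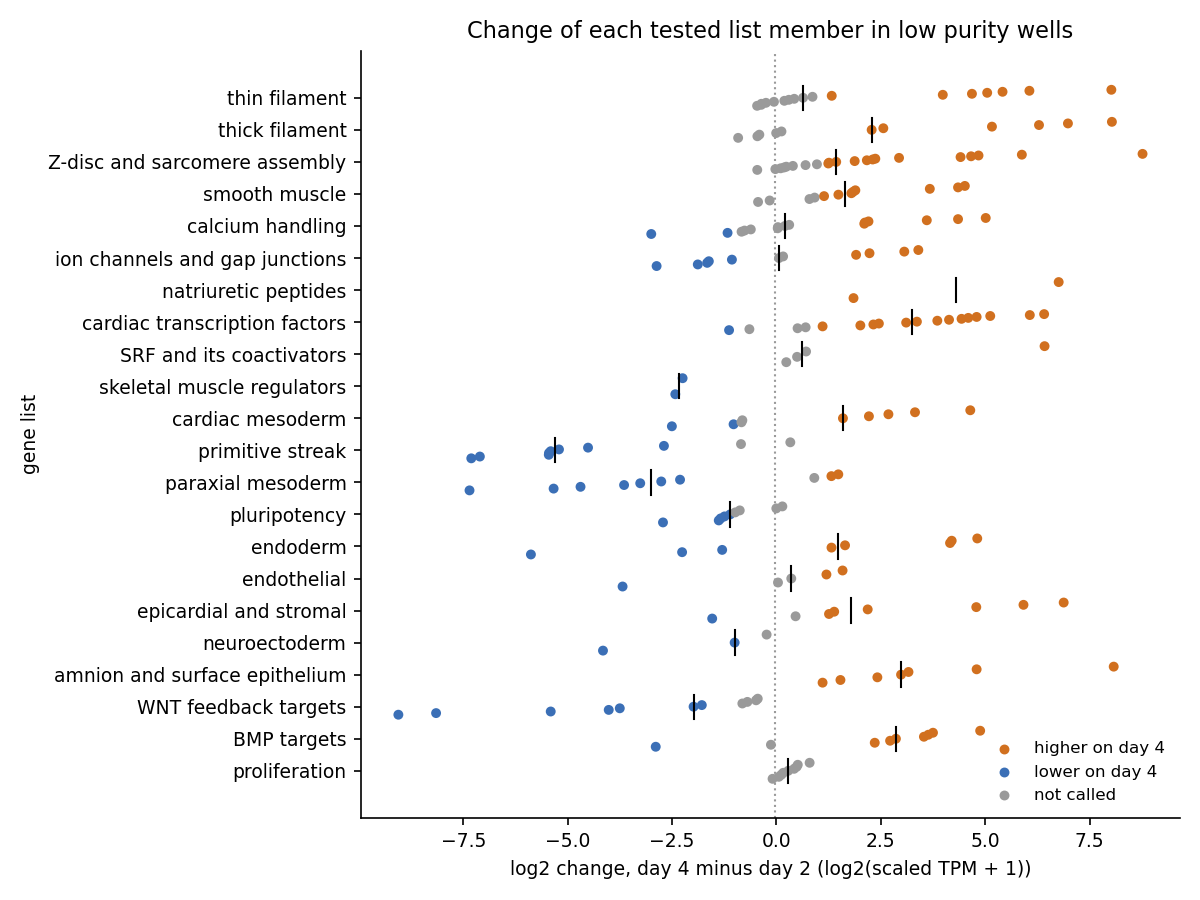
Change from day 2 to day 4 in low purity wells for each tested member of 22 gene lists, as log2(scaled TPM + 1) on day 4 minus day 2; points are genes, coloured by call, and vertical bars mark the median of a list. Primitive streak genes sit at the left with a median of -5.31, cardiac transcription factors at the right with a median of 3.23, and the 4 contractile lists at the top hold no gene called lower.

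Whether the rise was particular to the low purity wells was asked by the difference between the changes of the low and the high purity wells over the same days, tested in the same model. Of all genes tested, 1063 changed more upward in low purity wells (5.28%) and 1125 more upward in high purity wells (5.59%). Of the 61 contractile genes tested, the change was called more upward in low purity wells for 26 and in high purity wells for 2, MYL3 and MYLK. Of the 26, 23 were among the 34 that rose in low purity wells. The other 3, TNNI3, PDLIM5 and PDLIM3, were not called there, at 0.30, 0.97 and 0.39, and had changes of -1.05, -0.23 and -0.61 in high purity wells. The median change of the 61 genes was 1.32 in low and 0.63 in high purity wells. The genes entered through a filter on the low purity wells alone.

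TNNT2 reached 15.2 ± 4.63 TPM in high purity wells on day 4 from 0.746 ± 0.700 TPM on day 2, and its rise was larger in low purity wells by 4.85 ± 0.39 (SE; limma adjusted p = 5.62e-14). ACTC1 reached 59.1 ± 6.73 TPM there from 22.1 ± 2.25 TPM, a difference in rise of 4.81 ± 0.21 (SE). ACTA2 stayed at 5.00 ± 1.29 and 5.05 ± 0.876 TPM in high purity wells, which gave a difference of 4.60 ± 0.25 (SE; limma adjusted p = 3.86e-19). For these 3 genes the classes were close on day 2 and far apart on day 4. For MYH6, XIRP1, SYNPO2L, LMOD1 and SMYD1 the differences were 4.18, 4.00, 3.96, 3.75 and 3.69.

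Other contractile genes rose on day 4 in both classes. ANKRD1 went from 0.682 ± 0.311 to 395 ± 19.1 TPM in high purity wells, and the difference in rise of 0.97 ± 0.30 (SE; limma adjusted p = 0.00781) was under the size asked for. MYLK3 rose by 5.16 in low and 4.76 in high purity wells, a difference of 0.40 ± 0.17 (SE; limma adjusted p = 0.0552). MYL9 differed by 0.16 ± 0.16 (SE) and FLNC by -0.46 ± 0.15 (SE), and neither was called. MYL3 was higher on day 4 in high purity wells, at 19.8 ± 6.07 TPM, and its difference was -1.49 ± 0.52 (SE; limma adjusted p = 0.0212).

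The cardiac transcription factors named here and MYOCD differed less than TNNT2 or ACTC1, which had the largest differences among contractile genes. MEF2C, at 2.49, was above MYL4 and MYL7, at 2.33 and 2.31. Of the 18 cardiac transcription factors tested, 5 were called more upward in low and 1 in high purity wells, beside 5.28% and 5.59% of all genes. HAND1, HAND2, TBX2, GATA4 and NKX2-5 were not called for the difference, at 0.26, 0.30, 0.01, -0.05 and 0.52. TBX20 rose to 168 ± 10.9 TPM in low and 92.0 ± 15.5 TPM in high purity wells, a difference of 0.91 ± 0.22 (SE), and ISL1 to 31.6 ± 1.21 and 54.5 ± 8.22 TPM, a difference of -0.86 ± 0.19 (SE), both under the size asked for. MEF2C, MYOCD and TBX5 rose more in low purity wells, by 2.49 ± 0.29, 1.67 ± 0.23 and 1.71 ± 0.24 (SE). In calcium handling, SLC8A1 differed by 4.62 ± 0.27 (SE) and PLN by 3.08 ± 0.32 (SE). MESP1, a factor of cardiac mesoderm, fell in low purity wells from 6.02 ± 1.23 to 0.271 ± 0.214 TPM and stood at 4.07 ± 0.920 and 5.62 ± 0.851 TPM in high purity wells, a difference of -2.79 ± 0.21 (SE; limma adjusted p = 1.29e-14).

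**Figure D3:**
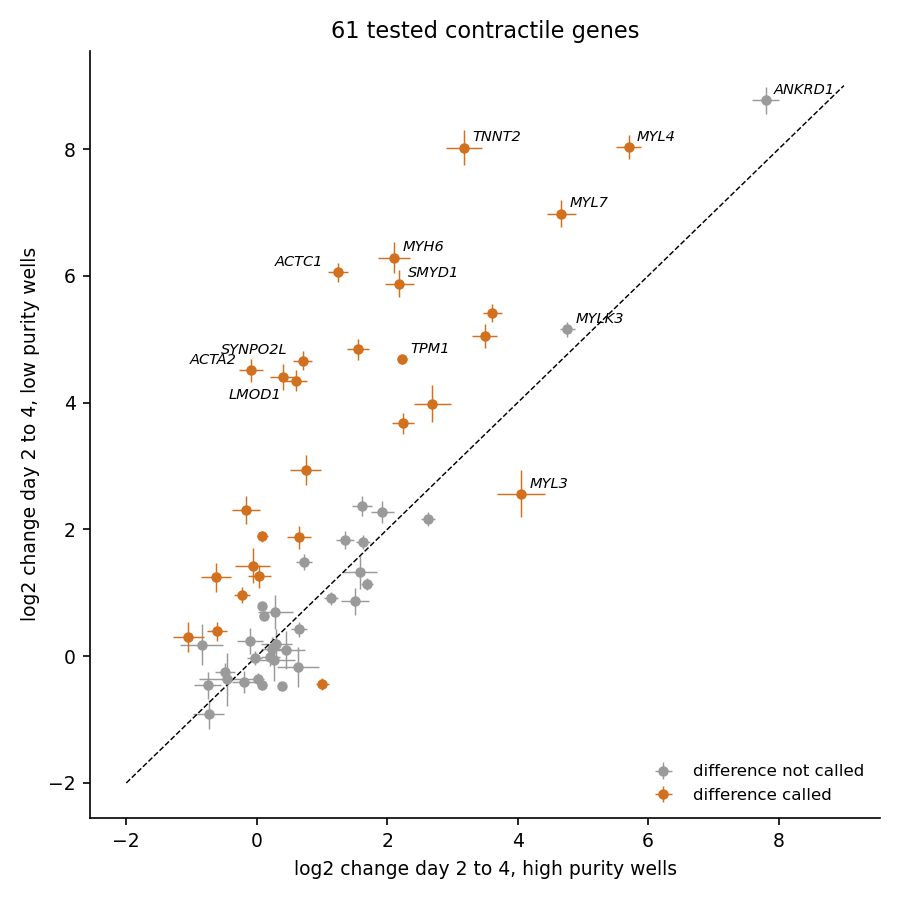
Change from day 2 to day 4 of the 61 tested contractile genes in low purity wells (vertical axis) against high purity wells (horizontal axis), as log2(scaled TPM + 1) with standard errors; the dashed line marks equal change. Genes called for the difference are orange: TNNT2, ACTC1, MYH6 and ACTA2 lie well above the line, MYL3 below it, and ANKRD1 and MYLK3 are grey and close to it.

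Placed in the whole course of the low purity differentiation, some genes were near their highest level on day 4 and others far below it. The levels are means of the wells of a day and were not tested. Of the 34 genes that rose, 27 had reached at least 10% of their highest day's mean by day 4 in the low purity wells, and 11 in the high purity wells. Some had passed 10% before the step. In low purity wells TPM1, MYOZ1, MYL9, CALD1, CSRP1 and PDLIM7 had done so on day 0 and FLNC on day 2. TPM1 was then down at 2.75% on day 2 and CSRP1 at 3.43%. In high purity wells MYOZ1, TAGLN, MYL9, CALD1, CSRP1 and PDLIM7 had passed 10% on day 0. The median gene stood at 0.83% of its low purity peak on day 2 and 39.1% on day 4, and at 3.18% of its high purity peak on day 4. Because the 34 genes were chosen by their rise in low purity wells, these shares describe them and do not compare the classes. For 0 of the 34 was day 4 itself the highest day.

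ACTC1 stood at 76.7% of its peak on day 4, fell back to 52.8% on day 6, at 1191 ± 206 TPM, and peaked on day 8 at 2257 ± 580 TPM (SD). ANKRD1 did likewise, at 58.6% on day 4 and 38.6% on day 6. MYL7 also stood lower on day 6, at 24.7% and then 17.9%, and peaked on day 16. TNNT2 kept rising, to 1012 ± 230 TPM on day 6 and 1361 ± 234 TPM on day 8. MYH6 stood at 9.80% of its peak on day 4, ACTN2 at 4.49% and MYL3 at 0.563%. MYOCD was at 135 ± 7.81 TPM on day 4, its highest day in low purity wells, and at 57.0 ± 17.7 TPM on day 6 (SD, n = 4).

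The order of the classes on day 4 was not kept. High purity wells measured 1165 ± 481 TPM of TNNT2 on day 6, which overlapped the low purity wells, then 2952 ± 521 TPM on day 8 and 3375 ± 446 TPM on day 16, where low purity wells had 1073 ± 215 TPM (SD; n = 4 wells on day 6 and 3 in the groups of days 8 and 16 named here). MYH6 in high purity wells went from 5.99 TPM on day 4 to 1654 ± 426 TPM on day 6 and 3991 ± 535 TPM on day 16, where low purity wells had 358 ± 54.9 TPM. ACTA2 ended the other way, at 644 ± 67.8 TPM in low and 74.3 ± 4.10 TPM in high purity wells on day 16.

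**Figure D4:**
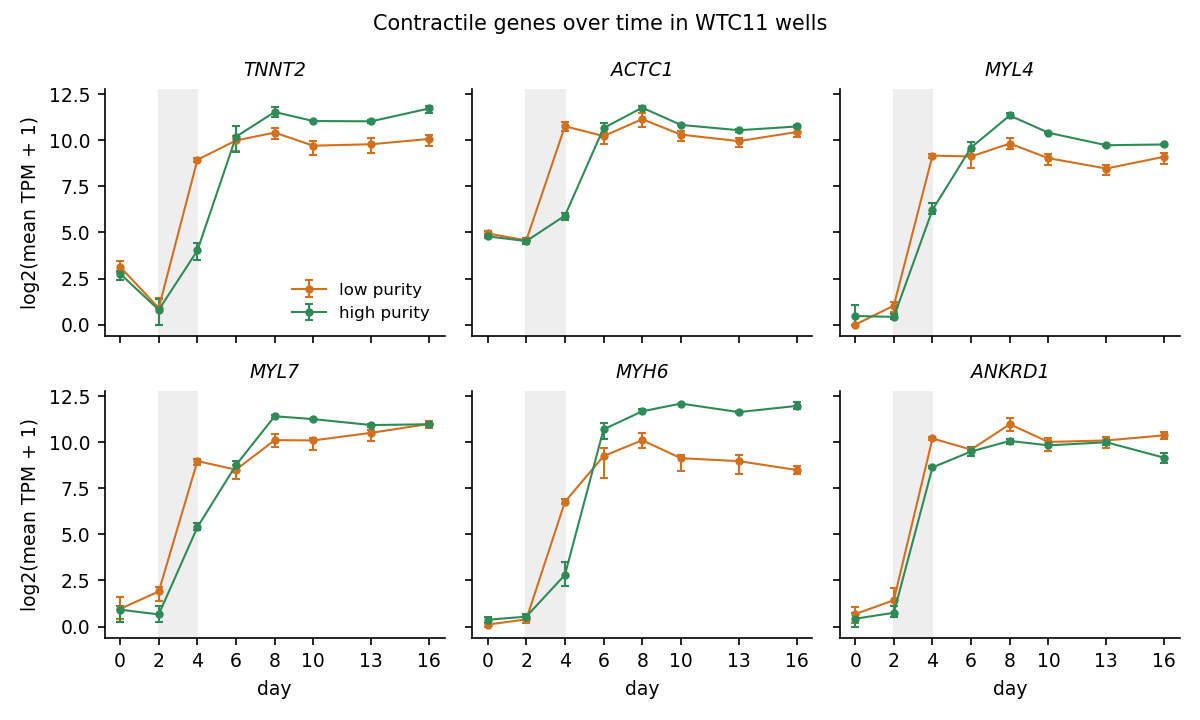
Mean TPM of 6 contractile genes by day in low purity (orange) and high purity (green) WTC11 wells, on a log2(mean TPM + 1) axis; bars span the lowest to the highest well and the grey band marks day 2 to day 4. Low purity wells lead on day 4, with TNNT2 at 489 against 15.2 TPM, and are below the high purity wells by day 8 for 5 of the 6 genes, all but ANKRD1.

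The RNA-only collection offers the same step in 6 differentiations. It was made with a total RNA kit, so that levels across the kits are only set side by side. Its low purity WTC11 pair is also labelled passage 69, and whether it came from the differentiation of the 8 wells is not given. That pair did not show the day 4 level of the 8 wells. TNNT2 measured 0.222 TPM on day 2 and 0.613 TPM on day 4 there, ACTC1 7.33 and 6.03 TPM, and MYH6 0.0637 and 0.215 TPM. ANKRD1 and MYL4 did go up in that library, from 0.349 to 37.9 TPM and from 2.01 to 27.9 TPM. Of the 34 genes, 9 were higher by at least 1 on the log2 scale in that pair, beside 3.33% of all genes, and the sum of the 4 contractile lists was 693 and 802 TPM. The high purity WTC11 pair, at passage 81, had 17 of the 34 higher (5.87% of all genes), with TNNT2 at 0.0410 and 2.78 TPM.

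In IMR90-4, sampled on days 3 and 5, 15 of the 34 were higher in the low and 17 in the high purity pair, beside 2.91% and 4.95% of all genes. TNNT2 reached 1.60 TPM in the low and 5.79 TPM in the high purity library of day 5. In H9 the counts were 5 and 8, beside 2.09% and 3.17%. The low purity H9 library of day 5 had the most TNNT2 of the 6, 28.9 TPM, while ACTC1 there was at 3.53 TPM. Low purity H9 was already high on day 3, with MYL4 at 268 and MYL7 at 219 TPM, beside 24.3 and 18.1 TPM in high purity H9. Its contractile lists summed to 1341 and then 1081 TPM, beside 994 and 896 TPM. On day 5 low purity H9 was above high purity H9 in TPM1 (209 and 55.4 TPM) and COL3A1 (368 and 2.15 TPM), but below it in MYL4 (8.44 and 32.0 TPM). The high level of contractile RNA on day 4 was a measurement of the 1 differentiation that these 4 wells share.

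**Figure D5:**
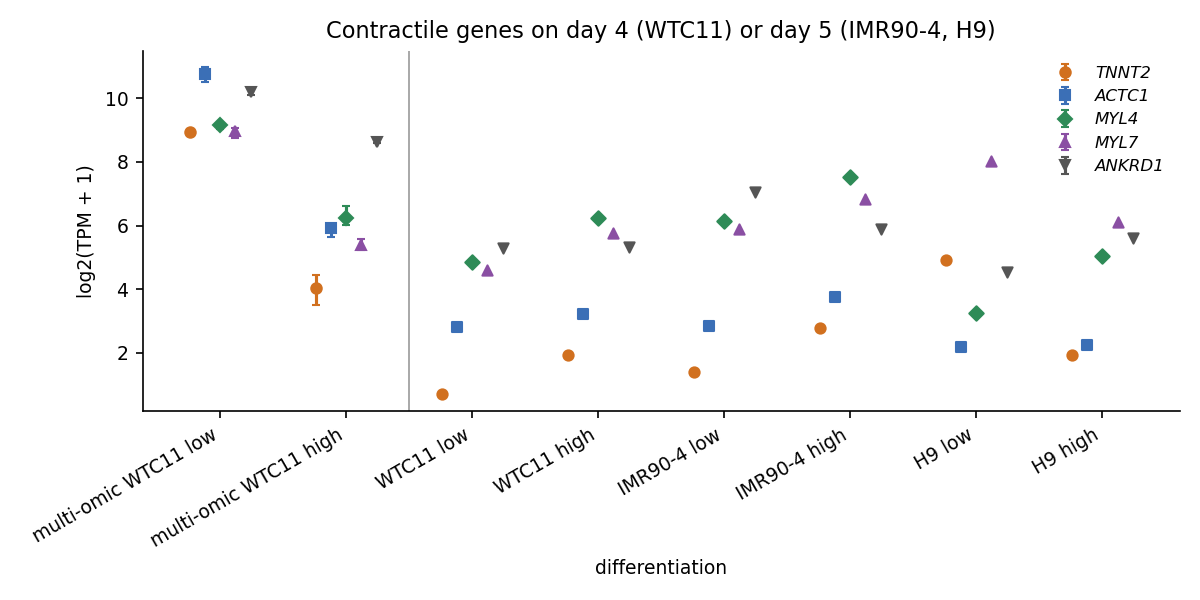
TPM of 5 contractile genes on day 4 (WTC11) or day 5 (IMR90-4 and H9) on a log2(TPM + 1) axis; the 2 columns at the left are means of 4 multi-omic wells with bars from the lowest to the highest well, and the 6 at the right are single RNA-only libraries. The multi-omic low purity wells stand highest for every gene, with ACTC1 at 1732 TPM against 12.4 TPM in the highest RNA-only library.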

How the data were processed

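Cells were harvested in Trizol, per the labels' protocols, and the 8 wells were sequenced as stranded poly(A) libraries, the RNA-only samples as total RNA. The authors aligned with STAR 2.5.3a to hg38 and counted with featureCounts 2.0.3, per the submitters' processing notes; annotation, counting strand and the computation of the TPM are not given in the sources used here. Deposited values are read counts and TPM per gene. Counts of the RNA-only tables served to solve gene lengths (37194 of 43388 genes), from which reads were recovered from TPM; the multi-omic counts served only to check column names. With a tolerance of 0.1 read, 100.0% of the nonzero values of up to 100 reads came out whole. The RNA-only count table held 36 broken lines, which were skipped.

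TPM was divided by TMM factors (0.960 to 1.08 in the 8 wells; edgeR 4.0.16), log2-transformed with a pseudocount of 1 and fitted with limma 3.58.1 (trend, R 4.3.3) to 16 group means of 56 libraries, with Benjamini-Hochberg adjustment over 20138 genes. The spread was thus estimated over 40 residual degrees of freedom and not from the 8 wells alone. Libraries were grouped by their labels. Genes with 0 day 2 reads are given as a bound against 3 reads over the 4 wells. Of those with 1 to 3, TNNI1 and MYL3 are given as a ratio with an exact 95% interval, which covers counting error only. The others are given by their reads or TPM. The reads carry no molecular identifiers. Named genes were the 10 called protein-coding genes of largest rise and of largest fall (wells of the days not overlapping, mean of at least 10 TPM on the higher day), a fixed set of contractile genes, cardiac factors and stage markers, and of each list up to 4 called and 2 not called. All 61 contractile genes tested, and GJA1, were added after their values were seen. The genes and lists were chosen with earlier results of these data known. The fit was tested on simulated data. Other pseudocounts, filters, scalings, edgeR, DESeq2 1.42.0, the well number as a block and leaving out each well were tried.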

Additional observations from a re-analysis of the deposited data

Results flagged for a closer look

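The 155 named genes gave 310 groups of 4 wells. Groups with 4 equal values, such as UNC45B and HAND2 on day 2 with 0 in every well, could not be tested. In 21 groups a well stood apart from the other 3 by Dixon's test at 95%, where chance gives about 1 in 20 groups tested. On day 2 these were well 3 for NPPB (0.535 TPM), NKX2-5 (0.291), SMYD1 (0.0855), DLL3 (87.9), ZFP42 (38.5) and MYOZ2 (0). Well 2 of day 2 stood apart for TBX5 (0.201 TPM), MYLK3 (0.548), NPPA (0.960), APOA1 (0.629) and MYL3 (0.442), and well 1 for TNNI1 (0) and ACTN2 (1.12). On day 4 they were well 2 for DKK4 (1.41 TPM) and CCNB1 (226), well 4 for DEFA6 (1.81) and MYOZ2 (2.53), well 3 for ISL1 (29.8) and MYBPC2 (1.44), and well 1 for KCNJ3 (18.1) and TMOD4 (1.54). Many of the day 2 values rest on 0 to 3 reads in the wells.

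The change from day 2 to day 4 differed between low and high purity wells for 69 of 154 named genes (low minus high, limma adjusted p under 0.05 and a difference of at least 1), 47 upward and 22 downward in low purity wells. Among sarcomere genes the differences were 4.85 for TNNT2, 4.81 for ACTC1, 4.18 for MYH6, 2.46 for TPM1, 2.33 for MYL4, 2.31 for MYL7, 1.80 for TNNI1, 1.55 for NEBL, 1.34 for TNNI3, 1.29 for TNNC1 and -1.49 for MYL3. In the Z-disc and assembly list they were 4.00 for XIRP1, 3.96 for SYNPO2L, 3.69 for SMYD1, 3.29 for UNC45B, 2.47 for ACTN2, 2.19 for LDB3, 1.87 for MYOZ1, 1.49 for HSPB7, 1.22 for both MYOZ2 and CMYA5, 1.20 for PDLIM5 and 1.01 for PDLIM3. Smooth muscle genes gave 4.60 for ACTA2, 3.75 for LMOD1, 1.80 for CALD1, 1.43 for CNN1 and -1.45 for MYLK.

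Genes of calcium handling, excitation and the natriuretic peptides gave 4.62 for SLC8A1, 3.08 for PLN, 2.63 for NPPB, 2.19 for HCN4, 1.99 for JPH2, -1.80 for TRDN and -2.30 for KCNJ5. Transcription factors of the heart gave 2.49 for MEF2C, 1.71 for TBX5, 1.67 for MYOCD and -1.00 for TBX3. Genes of stroma, amnion, endoderm and BMP response with larger rises in low purity wells were COL3A1 (5.20), IGFBP3 (5.10), LUM (4.86), TTR (4.22), GABRP (3.72), ID2 (2.42), APOA1 (2.15) and COL1A1 (1.74). COL1A2 (1.53) was not called in low purity wells, at 0.46, and changed by -1.07 in high purity wells. CLSTN2 (3.51), LRP2 (2.57) and FYB2 (2.00) were called higher on day 4 and rose more in low purity wells, while NODAL (3.80) fell less there. Mesoderm and streak genes gave -2.79 for MESP1, -1.91 for TBX6, -1.67 for FOXC2, -1.18 for FGF17, -1.12 for DLL3, -1.07 for MESP2 and -1.05 for GSC, and skeletal regulators -2.27 for MYF6 and -1.82 for MYF5. The remaining genes were TNFRSF11B (-2.54), CER1 (-2.30), DEFA6 (-2.03), CD34 (-1.93), LMO2 (-1.61), OTX2 (-1.36), TTC29 (-1.25) and TDGF1 (-1.23).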

How the results depend on the processing

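Of 4272 called genes (2188 for the difference between classes), a pseudocount of 5 left 1977, of which 1009 were higher and 968 lower, with 888 for the difference. With no fold change threshold 11966 were called, 5722 higher and 6244 lower, with 7672 for the difference. Leaving out a well gave 4190 to 4284 calls (1949 to 1991 higher, 2237 to 2307 lower), 2068 to 2223 for the difference, 33 to 35 contractile genes higher, and a read difference between days of 2857123.3 to 3541064. Contractile genes higher numbered 29 to 42 over all settings. The pseudocount of 5 lost CMYA5, HSPB7, LMOD2, MYOZ1 and MYOZ2, and MYOZ1 was also lost without day 2 well 2; TTN has no recovered reads and so could not be tested with edgeR or DESeq2. MYOM1 was called lower with a pseudocount of 0.1, edgeR and DESeq2. All 7 other settings kept the counts of calls within 1.5 times. No named gene that was called reversed its direction in any setting. The balance of calls did turn, from more genes lower to more higher, with no scaling (2208 higher, 2100 lower) and with the pseudocount of 5, as did the median of all genes with no scaling. With the well number as a replicate block 4292 genes were called, 2036 higher and 2256 lower, 34 contractile genes among the higher, and 2156 for the difference; same-numbered wells of the 2 days did not deviate together (r = 0.033, -0.023, -0.005 and -0.008), so the numbers do not pair them. Changes from day 2 to day 4 of named genes crossed the threshold for 11 genes downward and 27 upward in some setting, and differences between the classes for 29 downward and 43 upward. Wells of a single differentiation limit every p-value to the spread between wells.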

Other observations

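BMP targets and some stromal genes rose in the same 4 day 4 wells. IGFBP3, a secreted binder of insulin-like growth factors, went from 1.29 to 656 TPM in low purity wells and from 2.63 to 29.7 TPM in high purity wells. COL3A1, a fibrillar collagen, went from 0.211 to 151 TPM and in high purity wells from 0.922 to 5.37 TPM. LUM, the collagen-binding lumican, had 0 reads on day 2 and reached 63.3 TPM, at least 576-fold higher, beside 1.21 TPM in high purity wells. Of other matrix genes, COL1A2 was not called (0.46) and DCN did not exceed 0.227 TPM in any well. TCF21, a factor of epicardium and cardiac fibroblasts, had 0 reads on day 2 and 3.80 TPM on day 4, at least 47.2-fold higher. Of 9 BMP targets 7 rose and 1 fell, with a median change of 2.86 in low and 2.79 in high purity wells. SMAD6, an inhibitor that BMP induces, rose by 4.88 to 167 TPM, and ID2 rose by 3.75 to 459 TPM.

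A few genes of other lineages appeared as well. APOA1 and TTR, secreted by visceral endoderm and liver, had 2 reads each on day 2 and 564 and 267 reads on day 4, while CER1, of the anterior endoderm and streak, fell by 5.88 from 429.5 TPM. GABRP, a gene of amnion and trophoblast, went from 0.808 to 14.2 TPM in low purity wells and from 2.17 to 1.02 TPM in high purity wells. NODAL, a ligand of the streak, measured 109 and 66.0 TPM in low purity wells, which was not called, and 278 and 11.3 TPM in high purity wells.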
